A study of Mus musculus with 10 samples.

Results

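Direct p53 target genes are genes whose transcription p53 raises when it binds near them, and a list of 32 of them was followed through mouse thyroid tumours with and without p53. A gene was measured where a probe set of the array, a group of probes summarised into a single value, carried exactly its symbol in the platform annotation. This held for 30 of the 32 genes, each with a single probe set, out of 19938 genes named in this way. Bax and Fdxr have no probe set with their symbol alone in the annotation used here and are not analysed here.

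Total RNA from 5 papillary thyroid carcinomas (PTC) and 5 anaplastic thyroid carcinomas (ATC) was hybridised to Affymetrix whole-transcript arrays, with 1 array per tumour. The PTC group carried TPOCreER and BrafV600E, that is, Cre under a thyroid peroxidase promoter together with an oncogenic Braf allele. The ATC group carried the same alleles and was p53 -/-. Both groups were on a mixed C57BL/6;129SvJae background, and the labels used here give no age, sex or tumour time. Tumour histology and p53 genotype changed together, so their effects cannot be told apart. The labels also do not say whether p53 was lost in the whole animal or only in cells that expressed Cre, so host cells in the ATC tissue may or may not have kept it. They call the tumours biological replicates without saying that each came from a separate animal, and the p-values measure the spread between these tumours. The p53 transcript itself is not analysed here, so no array value tested the labelled genotype. Array medians were alike (7.25 to 7.34), and ATC replicate 5 had the widest distribution (quartiles 6.02 and 8.72).

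p53 is a transcription factor that is held at a low level by the ubiquitin ligase MDM2 and accumulates after DNA damage or oncogenic signalling. Its targets carry out its effects: some stop the cell cycle, some trigger apoptosis, some repair DNA or adjust metabolism, and some, such as Mdm2 itself, switch p53 off again. Most targets are also transcribed without p53, from a basal promoter or through other factors, so loss of p53 usually lowers a target and does not silence it. In the thyroid, loss of p53 is known from anaplastic carcinoma and is uncommon in papillary carcinoma.

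The targets were lower in ATC more often than genes in general. Of the 30 measured members, 13 fell (43.3%), 2 rose (6.67%) and 15 did not pass an adjusted p of 0.05 (limma, Benjamini-Hochberg over all 19938 genes). Over all genes 9.72% fell and 11.5% rose, and 21.2% passed in either direction. The falls were moderate, from 1.22-fold to 2.34-fold, and 3 members fell by at least 1 log2 unit: Sulf2, Btg2 and Trp53inp1. The median difference, always given here as ATC minus PTC in log2 units, was −0.18 over the members and −0.02 over all genes. All 5 ATC tumours lay below all 5 PTC tumours for 9 members (30%), against 7.74% of all genes, and above them for 2 members (6.67%), against 9.13%. Leaving out PTC replicate 2, PTC replicate 4 or ATC replicate 1 alone left 10 members that fell, and leaving out ATC replicate 5 left 13. These counts describe the list and were not tested as a set. In bulk tissue, fewer cells that express a gene and less RNA of it per cell cannot be told apart.

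**Figure D1:**
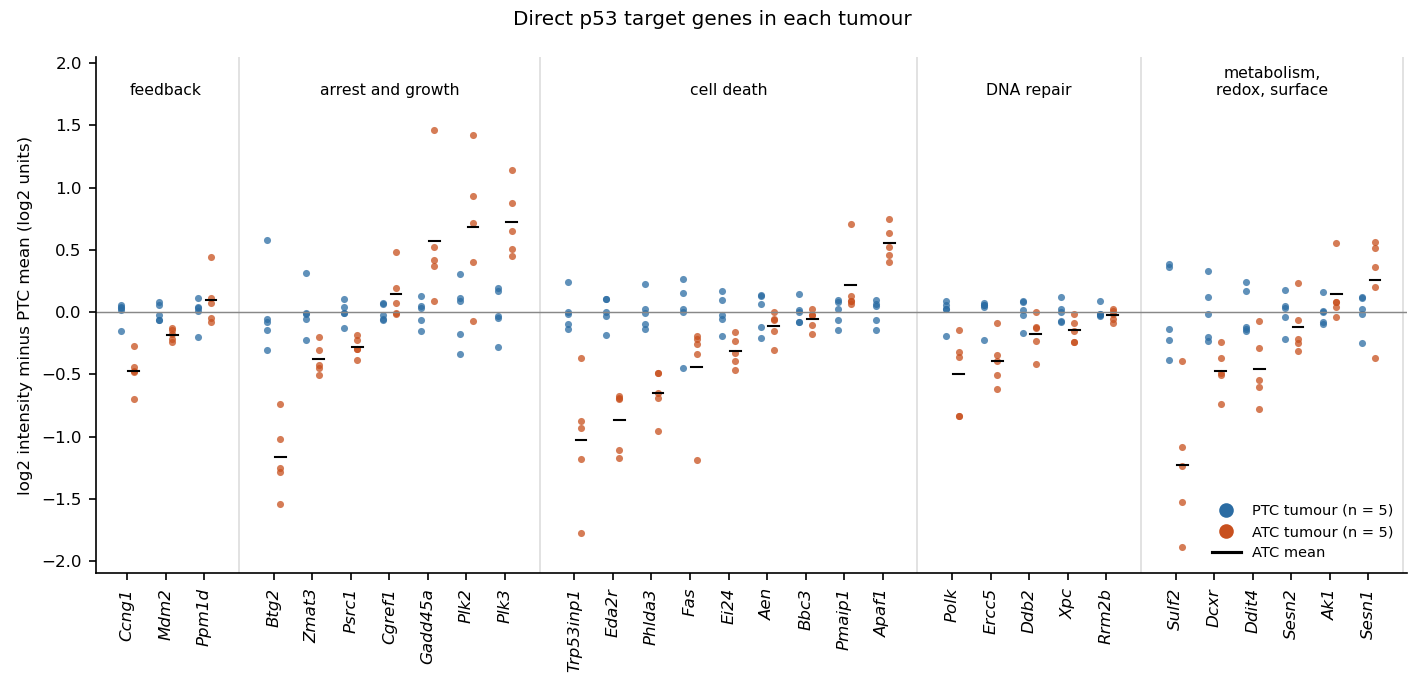
Each point is 1 tumour (blue PTC, orange ATC, n = 5 each), the vertical axis is its log2 intensity minus the mean of the PTC tumours for that gene, the genes are grouped by role and the black bar is the ATC mean. Ccng1, Btg2, Trp53inp1, Eda2r, Phlda3, Psrc1, Dcxr and Sulf2 fell with no overlap between the groups, Mdm2 was also separate without passing the test, and Plk3 and Apaf1 lay above the PTC tumours.

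p53 binds a pair of copies of a decamer, the p53 consensus decamer, and promoter sequences show which members carry this element close to their start. RefSeq windows of 300 bases (GRCm38.p6, 250 bases before the transcription start to 50 after it) were given for 26 of the 32 members. The decamer, which reads alike on both strands by its definition, was found without mismatch in 9 of these 26 (34.6%), against 9.55% of all 27025 genes with a window. Among measured members it was found in 8 of 24 (33.3%), against 8.56% of the 15614 genes on the arrays that have a window. A gene counted where any of its windows held the decamer, and the 27025 genes had 32851 windows. Genes with more annotated starts thus had more chances of a match, and no comparison per window was made. A pair of exact decamers 0 to 13 bases apart was found in 0 of the 26, and in 0.074% of all genes with a window. With up to 1 mismatch outside the core C and G, a relaxation chosen after the exact search had been seen, Ccng1 alone among the members held a pair, against 0.718% of all genes with a window. The members shown here are those whose windows held the element upstream of the start and that were measured; capitals mark the decamer, or for Ccng1 the pair, and the sequences run 5′ to 3′ on the strand of the gene.

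Ccng1, chr11:40755437-40755506, minus strand: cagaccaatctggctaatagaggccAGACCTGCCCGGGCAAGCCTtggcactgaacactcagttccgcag
Mdm2, chr10:117710910-117710969, minus strand: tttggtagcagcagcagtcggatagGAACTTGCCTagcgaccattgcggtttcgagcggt
Ppm1d, chr11:85311097-85311156, plus strand: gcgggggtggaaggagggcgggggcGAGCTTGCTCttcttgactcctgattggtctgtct
Gadd45a, chr6:67037413-67037472, minus strand: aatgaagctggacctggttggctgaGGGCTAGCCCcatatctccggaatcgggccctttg
Aen, chr7:78895912-78895971, plus strand: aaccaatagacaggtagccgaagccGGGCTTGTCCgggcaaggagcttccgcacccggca
Ei24, chr9:36797335-36797369, minus strand: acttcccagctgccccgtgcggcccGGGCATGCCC
Polk, chr13:96519384-96519437, minus strand: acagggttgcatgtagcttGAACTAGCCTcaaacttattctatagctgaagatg
Sesn1, chr10:41887241-41887300, plus strand: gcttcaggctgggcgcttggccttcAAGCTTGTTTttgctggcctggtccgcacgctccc

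In Ccng1 the 2 decamers adjoin without a gap, from 195 to 176 bases before the start, and in Ei24 the decamer ends at the base before the start. Aen, Polk and Sesn1 have more than 1 annotated start, and the sequence printed belongs to the window in which the decamer lies upstream. Of the measured members with a window, the decamer was found in 3 of 11 that fell (Ccng1, Ei24 and Polk), in 0 of 2 that rose and in 5 of 11 that did not pass (Mdm2, Ppm1d, Gadd45a, Aen and Sesn1). A match is a string of letters and not a site shown to bind p53, and a window without it says only that the letters are not in those 300 bases.

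Among the 3 feedback genes, Ccng1 fell (33.3% of the role, against 9.72% of all genes) and the other 2 did not pass. Ccng1 encodes cyclin G1, which recruits a phosphatase to MDM2 and so limits p53. Its log2 intensities were 12.06, 12.03, 12.02, 12.04 and 11.85 in PTC replicates 1 to 5, and 11.53, 11.73, 11.3, 11.56 and 11.52 in ATC replicates 1 to 5. The groups did not overlap, and the difference was −0.47 (95% interval −0.66 to −0.29, adjusted p = 0.00252, limma), a 1.39-fold fall. Mdm2 was measured at 9.76, 9.72, 9.84, 9.86 and 9.72 in PTC and at 9.65, 9.6, 9.56, 9.54 and 9.64 in ATC. All ATC values again lay below all PTC values, but the distance was small (difference −0.18, 95% interval −0.32 to −0.05) and missed the threshold (adjusted p = 0.0541, limma). With each array weighted by its quality the adjusted p of Mdm2 was 0.0285, and with quantile normalization once more it was 0.00924 with a difference of −0.25, so the call depends on the processing. Ppm1d encodes the phosphatase WIP1, which removes activating phosphates from p53. It was at 8.83, 9.07, 9.04, 9.06 and 9.14 in PTC and at 9.1, 9.14, 8.98, 8.95 and 9.47 in ATC, with overlapping groups (difference 0.10, 95% interval −0.13 to 0.33, adjusted p = 0.561, limma). Without ATC replicate 5 the difference of Ppm1d was 0.01, and without PTC replicate 1 it was 0.05.

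Of the 7 genes of arrest and growth control, 3 fell, 1 rose and 3 did not pass, with a median difference of 0.15. The falls were 42.9% of the role against 9.72% of all genes, and the rise was 14.3% against 11.5%. Btg2, an antiproliferative gene that slows entry into S phase, had the largest change of this role. It was at 9.65, 10.31, 9.59, 9.68 and 9.43 in PTC and at 8.19, 8.71, 8.48, 8.45 and 8.99 in ATC. Every ATC tumour was below every PTC tumour, and the fall was 2.25-fold (difference −1.17, 95% interval −1.56 to −0.78, adjusted p = 0.00106, limma). Psrc1, which encodes a microtubule protein of the mitotic spindle, was at 7.28, 7.17, 7.17, 7.05 and 7.22 in PTC and at 6.88, 6.95, 6.79, 6.88 and 6.99 in ATC. Its groups were separate although the fall was only 1.22-fold (difference −0.28, 95% interval −0.43 to −0.13, adjusted p = 0.0125, limma), because replicates lay close together. Zmat3, an RNA-binding zinc finger gene, fell by 0.38 (95% interval −0.60 to −0.15, adjusted p = 0.0216, limma). Its groups overlapped, since PTC replicate 2 (7.57) lay below ATC replicate 3 (7.6), and the call ended without ATC replicate 1 (−0.35, adjusted p = 0.053).

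The stress kinase gene Plk3 was the member of this role that rose. It was at 7.14, 7.36, 6.89, 7.34 and 7.12 in PTC and at 7.82, 7.62, 8.31, 7.68 and 8.05 in ATC. The groups were separate, and the rise was 1.65-fold (difference 0.72, 95% interval 0.42 to 1.03, adjusted p = 0.00389, limma). Its paralog Plk2, a kinase gene of centriole duplication, was at 9.47, 9.25, 8.99, 9.28 and 8.83 in PTC and at 10.59, 9.57, 10.1, 9.09 and 9.88 in ATC. ATC replicate 4 lay among the PTC tumours while the others were above them (difference 0.68, adjusted p = 0.0634, limma). Gadd45a, a growth arrest gene that also takes part in repair, was at 9.37 to 9.65 in PTC and at 10.04, 9.89, 10.98, 9.61 and 9.94 in the ATC tumours (difference 0.57, adjusted p = 0.0727, limma). Plk2 passed without ATC replicate 4 (0.87, adjusted p = 0.0109), and Gadd45a passed without ATC replicate 3 (0.35, adjusted p = 0.0304) or ATC replicate 4 (0.69, adjusted p = 0.0331). Cgref1, a calcium-binding growth regulator gene, had the smallest difference of the role (0.15, 95% interval −0.06 to 0.36, adjusted p = 0.325, limma), with 7.23, 7.11, 7.24, 7.14 and 7.1 in PTC and 7.36, 7.16, 7.24, 7.65 and 7.15 in ATC. Without ATC replicate 4 it was 0.07.

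Of 9 measured cell death genes, 4 fell, 1 rose and 4 did not pass, with a median difference of −0.31. The falls were 44.4% of the role against 9.72% of all genes, and the rise was 11.1% against 11.5%. Trp53inp1, whose nuclear protein promotes p53-dependent death and autophagy, was at 9.95, 10.32, 9.99, 10.07 and 10.08 in PTC and at 8.9, 9.21, 8.31, 9.71 and 9.15 in ATC. The groups did not overlap, but ATC tumours spread over more than 1 log2 unit, from replicate 3 at the bottom to replicate 4 at the top (difference −1.03, 95% interval −1.48 to −0.58, adjusted p = 0.00484, limma). Eda2r, the gene of a TNF receptor family member that binds ectodysplasin A2, had the smallest adjusted p of the members that fell. It was at 7.79, 7.94, 7.97, 8.08 and 8.08 in PTC and at 6.86, 7.27, 7.28, 7.3 and 6.8 in ATC, which is a 1.83-fold fall without overlap (difference −0.87, 95% interval −1.13 to −0.62, adjusted p = 0.000561, limma).

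Phlda3, which encodes a pleckstrin homology domain protein that restrains AKT, was at 8.46, 8.1, 8.14, 8.26 and 8.23 in PTC and at 7.28, 7.59, 7.55, 7.75 and 7.75 in ATC. All ATC values lay below all PTC values, a 1.57-fold fall (difference −0.65, 95% interval −0.88 to −0.43, adjusted p = 0.00134, limma). Ei24, an endoplasmic reticulum protein gene, fell by 0.31 (95% interval −0.50 to −0.12, adjusted p = 0.0246, limma) from 10.18 to 10.54 in PTC to 9.91 to 10.21 in ATC, ranges that overlap. The Ei24 call ended without PTC replicate 2 (−0.27, adjusted p = 0.0594), PTC replicate 4 (−0.29, 0.0643), ATC replicate 1 (−0.29, 0.0582) or ATC replicate 3 (−0.28, 0.0541), and with arrays centred on their medians (−0.28, 0.0521).

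Apaf1, the scaffold gene of the apoptosome, went the other way. It was at 8.68, 8.89, 8.92, 8.87 and 8.76 in PTC and at 9.57, 9.35, 9.23, 9.28 and 9.46 in ATC. The groups were separate and the rise was 1.47-fold (difference 0.55, 95% interval 0.37 to 0.74, adjusted p = 0.00103, limma). The BH3-only genes, whose products start mitochondrial apoptosis and are the classical death targets, did not pass. The first of them was dim, with a mean at percentile 28.8 of all genes, so its difference may show as too small. Bbc3 (PUMA) was at 6.65, 6.75, 6.73, 6.88 and 6.65 in PTC and at 6.71, 6.56, 6.71, 6.76 and 6.63 in ATC, with a 95% interval of −0.21 to 0.10 around a difference of −0.06 (adjusted p = 0.632, limma), which was −0.02 without PTC replicate 4 and −0.03 without ATC replicate 2. Pmaip1 (NOXA) was at 7.48, 7.7, 7.56, 7.72 and 7.65 in PTC and at 7.71, 7.71, 7.69, 7.75 and 8.33 in ATC. ATC replicate 5 was far above the other 9 tumours, which lay close together (difference 0.22, 95% interval −0.05 to 0.49, adjusted p = 0.244, limma), and without it the difference was 0.10.

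The death receptor gene Fas was at 8.76, 8.52, 8.65, 8.5 and 8.05 in PTC and at 8.3, 8.24, 7.31, 8.16 and 8.28 in ATC. Most ATC tumours lay just under most PTC tumours and ATC replicate 3 far below, but PTC replicate 5 was the lowest of the other 9 (difference −0.44, 95% interval −0.87 to −0.01, adjusted p = 0.146, limma). Without ATC replicate 3 the difference of Fas was −0.25. Aen, an apoptosis-linked nuclease gene whose promoter window holds a decamer, differed by −0.11 (95% interval −0.31 to 0.08, adjusted p = 0.430, limma), and by −0.17 without PTC replicate 2 and −0.07 without ATC replicate 1.

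The 5 DNA repair genes all had differences below 0, of which 2 passed and 3 did not, and for none of the 5 were the groups separate. The falls were 40% of the role against 9.72% of all genes. Over all genes 53.8% had a difference below 0. Polk encodes a translesion polymerase that copies past damaged bases. It was at 9.55, 9.83, 9.8, 9.77 and 9.77 in PTC and at 9.6, 9.38, 9.42, 8.91 and 8.91 in ATC, so that ATC replicate 1 lay above PTC replicate 1 (difference −0.50, 95% interval −0.80 to −0.20, adjusted p = 0.0226, limma). Ercc5, the gene of the XPG endonuclease of nucleotide excision repair, was at 8.91, 9.19, 9.18, 9.21 and 9.19 in PTC and at 8.79, 8.52, 8.63, 8.74 and 9.05 in the ATC tumours (difference −0.39, 95% interval −0.62 to −0.16, adjusted p = 0.0206, limma). In both genes PTC replicate 1 was the lowest PTC tumour and lay inside the ATC range. The Polk call ended without PTC replicate 2 (−0.48, adjusted p = 0.0506) or PTC replicate 3 (−0.49, 0.0536), and the Ercc5 call without PTC replicate 3 (−0.38, 0.0501) or PTC replicate 4 (−0.37, 0.052).

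The damage recognition genes of excision repair did not pass. Xpc differed by −0.15 (95% interval −0.30 to 0.01, adjusted p = 0.174, limma) and Ddb2 by −0.18 (95% interval −0.37 to 0.01, adjusted p = 0.188, limma). Rrm2b, the p53-inducible subunit of ribonucleotide reductase, had the smallest difference of all 30 members. It was at 8.73, 8.83, 8.73, 8.72 and 8.71 in PTC and at 8.75, 8.73, 8.77, 8.66 and 8.69 in ATC, and its 95% interval ran from −0.15 to 0.10 (difference −0.02, adjusted p = 0.813, limma). With single arrays left out it stayed between −0.04 and 0.

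Of the 6 measured genes of metabolism, redox control and the cell surface, 3 fell, 0 rose and 3 did not pass, with a median difference of −0.29. The falls were 50% of the role against 9.72% of all genes, of which 11.5% rose. Sulf2, a secreted sulfatase gene that edits heparan sulfate chains outside the cell, had the largest change of all members. It was at 10.72, 10.13, 10.22, 9.97 and 10.74 in PTC and at 8.83, 9.96, 8.47, 9.12 and 9.27 in ATC. The groups were barely separate, with PTC replicate 4 next to ATC replicate 2, while the other ATC tumours lay far lower (difference −1.23, 95% interval −1.78 to −0.67, adjusted p = 0.00551, limma). Dcxr, a carbonyl reductase gene of xylulose metabolism, was at 9, 8.78, 8.81, 9.13 and 9.34 in PTC and at 8.52, 8.51, 8.27, 8.64 and 8.77 in ATC. The groups were again barely separate (difference −0.47, 95% interval −0.74 to −0.20, adjusted p = 0.0200, limma), and the call ended without PTC replicate 4 (−0.44, adjusted p = 0.0518).

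Ddit4 encodes REDD1, an inhibitor of mTORC1 that also responds to hypoxia and glucocorticoids. It was at 8.35, 8.28, 7.99, 7.98 and 7.96 in PTC and at 7.33, 7.51, 7.57, 8.04 and 7.82 in ATC, with ATC replicate 4 inside the PTC range (difference −0.46, 95% interval −0.76 to −0.16, adjusted p = 0.0329, limma). This was the least stable call of the list. It ended without PTC replicate 1 (−0.40, adjusted p = 0.0812) or PTC replicate 2 (−0.42, 0.0759), and without ATC replicate 1 (−0.38, 0.0737), ATC replicate 2 (−0.42, 0.0679) or ATC replicate 3 (−0.44, 0.0653).

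The sestrin genes, whose products restrain mTORC1 when amino acids are scarce, did not pass. Sesn2 was at 7.54, 7.63, 7.36, 7.61 and 7.76 in PTC and at 7.27, 7.36, 7.81, 7.33 and 7.52 in the ATC tumours (difference −0.12, 95% interval −0.36 to 0.12, adjusted p = 0.496, limma), and without ATC replicate 3 the difference was −0.21. Sesn1 was at 9.37, 9.1, 9.46, 9.47 and 9.33 in PTC and at 9.91, 9.86, 8.98, 9.55 and 9.71 in the ATC tumours (difference 0.26, adjusted p = 0.309, limma). Here 4 ATC tumours lay above every PTC tumour and ATC replicate 3 below every one of them, and without that array Sesn1 passed with a rise of 0.41 (adjusted p = 0.018). Ak1, the adenylate kinase gene that balances adenine nucleotides, was at 7.16 to 7.42 in PTC and at 7.3, 7.22, 7.34, 7.34 and 7.81 in the ATC tumours (difference 0.14, adjusted p = 0.403, limma). Without ATC replicate 5 the difference of Ak1 was 0.04.

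**Figure D2:**
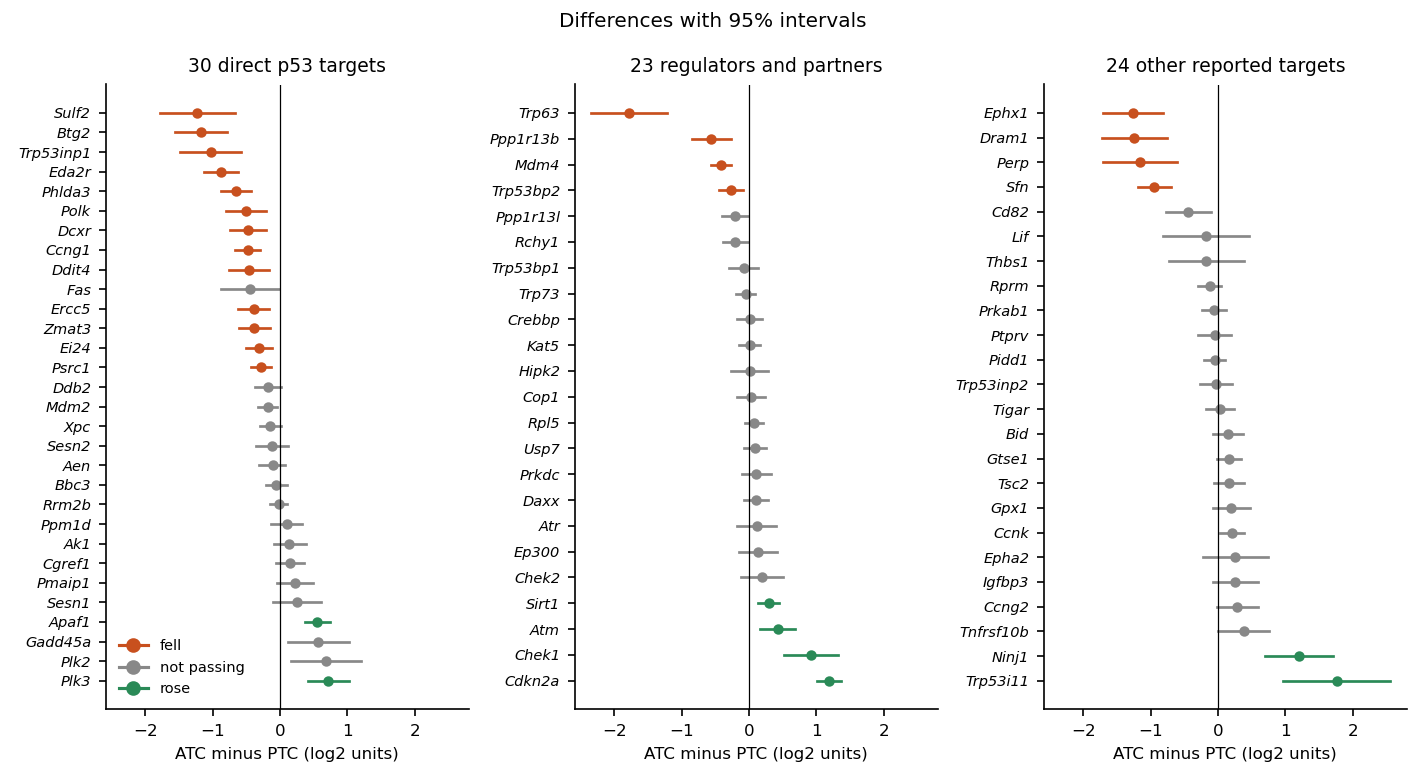
Points are differences in log2 intensity, ATC minus PTC, with 95% intervals from the limma fit, for the 30 members, 23 regulators and partners of p53 and 24 other reported targets, coloured by call at an adjusted p of 0.05. The members that fell run from Sulf2 (−1.23) to Psrc1 (−0.28), and the members that rose are Apaf1 (0.55) and Plk3 (0.72).

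These 13 genes were picked for lower values in the same tumours, so their values in single ATC tumours are a description and no further evidence of the falls. Of the 13 members that fell, 12 lay below every PTC tumour in each single ATC tumour, with a different exception in each. The median of these 13 genes, each taken relative to its PTC mean, was −0.51, −0.50, −0.69, −0.43 and −0.48 in ATC replicates 1 to 5. ATC replicate 3 had the lowest ATC value in 6 of the 13 and ATC replicate 5 the highest in 5. The ATC group had the larger SD for 21 of the 30 members (70.0%), close to the 68.6% of all genes, and the median SD of the members was 0.13 in PTC and 0.21 in ATC. Averaged over all 30 members, the level was 8.66, 8.68, 8.63, 8.68 and 8.66 in PTC and 8.44, 8.47, 8.39, 8.45 and 8.55 in ATC, so the tumour types were separate on this mean. The mean over the arrest genes overlapped (8.17 to 8.32 in PTC, 8.10 to 8.50 in ATC), whereas the death genes (8.36 to 8.48 against 7.93 to 8.23), the repair genes (8.67 to 8.84 against 8.50 to 8.62) and the metabolic genes (8.50 to 8.73 against 8.07 to 8.48) did not. The feedback genes were separate only before rounding (10.21 to 10.32 against 9.95 to 10.21). All these means include members that fell, and the separation of roles was not tested. The metabolic mean includes Sulf2, which had the largest fall of all members (−1.23), and it was not taken without this gene. In the same role Sesn1 (0.26) and Ak1 (0.14) were higher in ATC without passing.

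Markers of several cell types differed between the tumour types. Over all genes 9.72% fell and 11.5% rose. The epithelial marker list fell in 5 of 7 members, with Krt8 (−0.30, adjusted p = 0.19, limma) and Krt18 (−0.21, adjusted p = 0.583, limma) not passing, and its mean was 10.86 to 11.05 in PTC and 8.28 to 10.05 in ATC, with ATC replicate 2 highest and ATC replicate 1 lowest. All 9 macrophage markers rose (mean 9.20 to 9.70 in PTC, 10.61 to 11.39 in ATC), as did all 6 measured dividing cell markers (7.66 to 8.12 and 8.39 to 9.73). Of the 9 thyroid markers 3 fell and 0 rose (8.05 to 9.11 and 6.69 to 8.24), and thyroglobulin, Tg, was at 12.31 ± 0.65 (SD, n = 5) in PTC and 9.54 ± 2.41 (SD, n = 5) in ATC without passing (adjusted p = 0.0583, limma). Fibroblast (2 of 7 fell), endothelial (2 of 6), T cell (3 of 6) and B cell markers (1 of 4) fell in part, with 0 rises. For neutrophil (5), skeletal muscle (6) and parathyroid markers (3), 0 passed in either direction. The part of these cell types in the falls of Sulf2, Btg2, Trp53inp1 and the other members, and in the rises of Apaf1 and Plk3, was not tested.

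**Figure D3:**
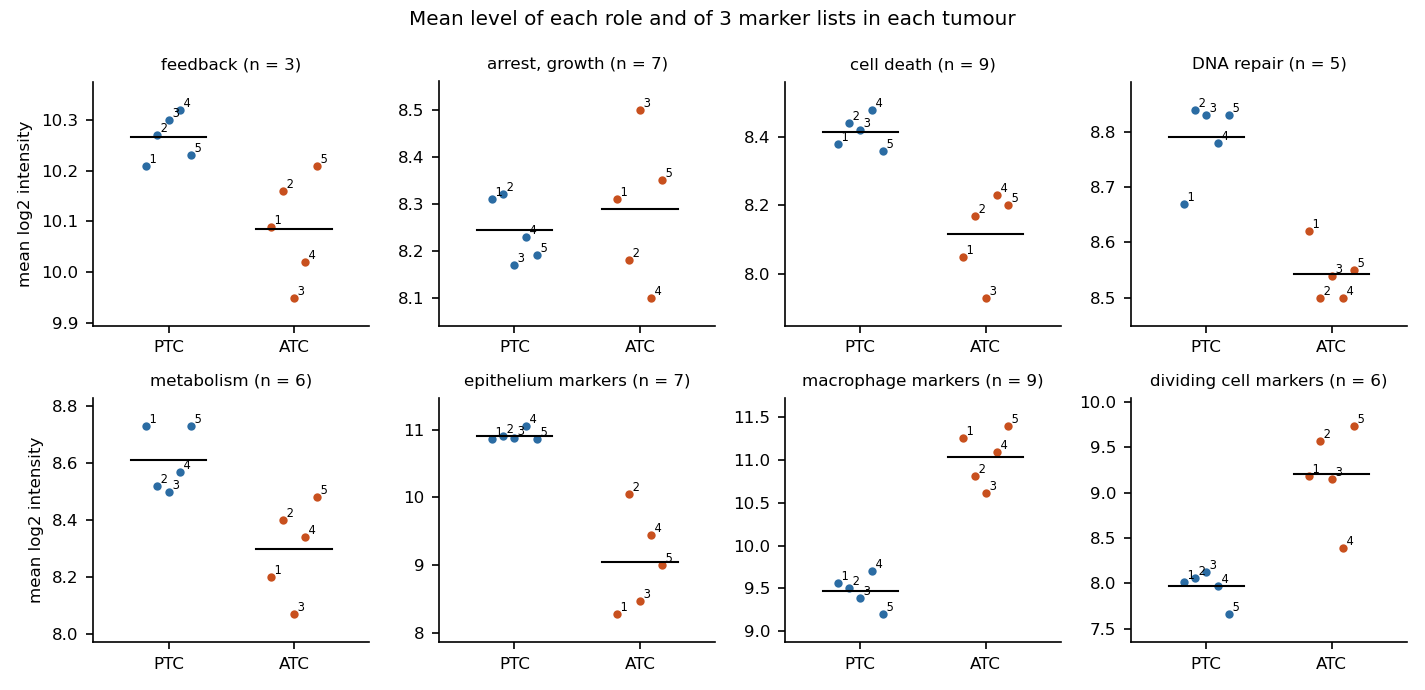
Each panel plots the mean log2 intensity of a gene list in each tumour, numbered by replicate, with PTC in blue, ATC in orange and the group mean as a bar; the vertical axes differ between panels and do not start at 0. The means of the death, repair and metabolic targets are lower in all 5 ATC tumours than in any PTC tumour. Those of the arrest genes overlap (8.10 to 8.50 in ATC). None of the repair genes was separate by itself. Within the death and metabolic roles Apaf1, Pmaip1, Sesn1 and Ak1 were higher in ATC, of which Apaf1 passed. The mean of the feedback genes is also lower in ATC, but the groups meet at 10.21 after rounding. The mean of the epithelial markers is lower and those of the macrophage and dividing cell markers are higher in ATC.

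The genes around p53 were read from a second list of 25 regulators and partners, of which 23 were measured: 4 fell, 4 rose and 15 did not pass (17.4% in each direction, against 9.72% and 11.5% of all genes). Mdm4, the MDM2 relative that masks the activation domain of p53, fell from 10.24, 10.42, 10.4, 10.3 and 10.32 in PTC to 9.92, 9.92, 9.81, 10.05 and 9.93 in ATC. The groups were separate (difference −0.41, 95% interval −0.56 to −0.26, adjusted p = 0.00172, limma). The p53 relative Trp63, a master gene of basal epithelia that can act on some of the same elements, fell from 9.29, 9.12, 9.42, 9.42 and 9.48 to 6.66, 8.16, 7.29, 8.24 and 7.49 (difference −1.78, 95% interval −2.34 to −1.21, adjusted p = 0.000834, limma). Within the ATC group, Trp63 was highest in replicates 4 and 2, and its relation to the epithelial markers was not tested.

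The products of Ppp1r13b (ASPP1) and Trp53bp2 (ASPP2) steer p53 towards death targets. Ppp1r13b fell by 0.56 (95% interval −0.85 to −0.27, adjusted p = 0.0111, limma) and Trp53bp2 fell by 0.26 (adjusted p = 0.0315, limma). The related gene Ppp1r13l did not pass (difference −0.21, adjusted p = 0.13, limma). Cdkn2a rose by 1.19 (adjusted p = 1.82e-05, limma) and was at 6.59 to 6.82 in PTC and at 7.74 to 8.07 in ATC. It encodes both Arf, which inhibits MDM2, and the cell cycle inhibitor Ink4a. A single probe set measured the gene, so the rise was not assigned to either product. The damage kinase genes Chek1 and Atm rose by 0.92 (95% interval 0.52 to 1.32, adjusted p = 0.00482, limma) and 0.43 (95% interval 0.16 to 0.69, adjusted p = 0.0289, limma), and the deacetylase gene Sirt1 by 0.30 (adjusted p = 0.0131, limma). The call of Atm was lost on leaving out PTC replicate 1, 4 or 5, or ATC replicate 5 (0.40, 0.42, 0.43 and 0.40, adjusted p = 0.0692, 0.0639, 0.0529 and 0.0599). That of Trp53bp2 was lost on leaving out PTC replicate 1, 3, 4 or 5 (−0.26, −0.26, −0.28 and −0.22, adjusted p = 0.068, 0.0694, 0.052 and 0.0619) or ATC replicate 1, 2 or 3 (−0.25, −0.26 and −0.27, adjusted p = 0.0715, 0.0625 and 0.0503). A variance trend with robust estimates ended it as well (−0.26, adjusted p = 0.052).

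A further 30 genes reported as p53 targets elsewhere were listed, and 24 were measured. Of these, 4 fell (16.7%, against 9.72% of all genes), 2 rose (8.33%, against 11.5%) and 18 did not pass, with a median difference of 0. Ephx1, a microsomal epoxide hydrolase gene, fell from 10.36, 10.48, 10.56, 10.6 and 11.13 in PTC to 9.6, 9.79, 8.66, 9.33 and 9.47 in the ATC tumours (difference −1.26, adjusted p = 0.00147, limma). Dram1, a lysosomal gene of p53-dependent autophagy, fell from 11.21, 10.97, 11.07, 10.96 and 10.88 to 9.22, 10.33, 9.15, 10.09 and 10.1 (difference −1.24, adjusted p = 0.00247, limma). In both genes the groups were separate. Perp, a desmosome gene, fell by 1.16 (adjusted p = 0.0072, limma), with 8.73 to 9.12 in PTC and 7.24, 8.44, 7.68, 8.34 and 7.03 in ATC. Sfn, the epithelial 14-3-3 sigma gene, was the other that fell (difference −0.95, adjusted p = 3e-04, limma).

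The rises in this list were those of Trp53i11 (PIG11) and Ninj1, a gene of membrane rupture in dying cells. Trp53i11 was at 9.14, 9.15, 8.85, 9 and 9.48 in PTC and at 10.54, 9.7, 11.58, 10.53 and 12.05 in ATC, a 3.38-fold rise (difference 1.76, 95% interval 0.96 to 2.56, adjusted p = 0.00584, limma). Ninj1 was at 6.93 to 7.56 in PTC and at 8 to 9.22 in the ATC tumours (difference 1.2, adjusted p = 0.00379, limma). Within the ATC group, both genes were lowest in replicate 2 and highest in replicate 5. Cd82, Lif and Ccng2 passed when a single array was left out: Cd82 without ATC replicate 3 (−0.58, adjusted p = 0.00293, limma), Lif without ATC replicate 3 (−0.48, 0.0435) and Ccng2 without ATC replicate 4 (0.40, 0.0248). Cd82 also passed with array weights (−0.41, 0.0381), quantile normalization once more (−0.53, 0.0282) and filters on dim genes at percentiles 25 and 50 (−0.44, 0.0442 at percentile 50). Ccnk passed with array weights (0.26, 0.0244).

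**Figure D4:**
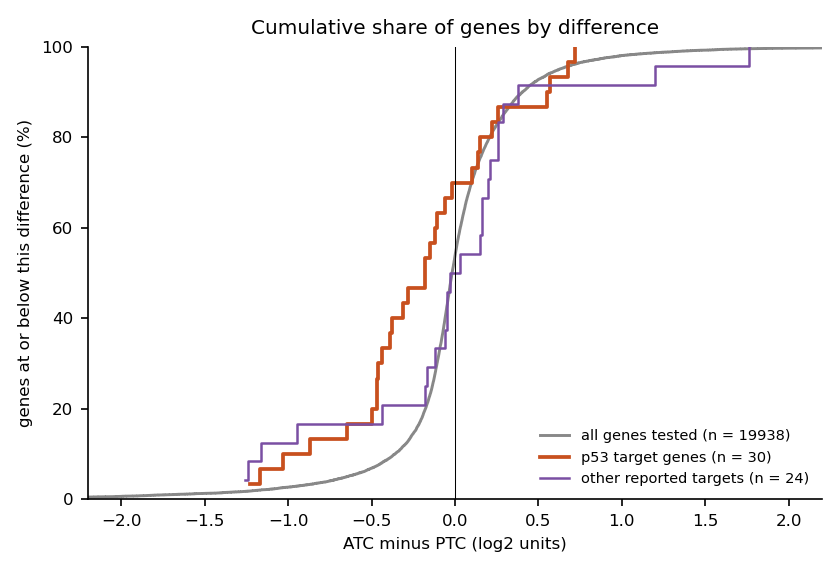
The share of genes at or below each difference (log2 units, ATC minus PTC) is drawn for the 30 direct p53 targets, 24 other reported targets and all 19938 genes, on an axis that leaves out the most extreme of them. Of the direct targets, 70.0% lie below 0 against 53.8% of all genes, whereas the other reported targets have a median of 0, with 4 falls (to −1.26 for Ephx1) and 2 rises (to 1.76 for Trp53i11) that passed. These falls and rises are 16.7% and 8.33% of that list, against 9.72% and 11.5% of all genes.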

How the data were processed

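Total RNA of 5 PTC and 5 ATC tumours was hybridised to Affymetrix arrays, and the deposited table holds 35556 probe sets on 10 arrays. Affymetrix Power Tools and limma are listed, per the submitters' processing notes. The normalization is not stated, and the build is not given in the sources used here. No source names the scale, and the deposited values were taken for normalized log2 intensities, since they run from 2.79 to 14.15 and the medians of the arrays lie between 7.25 and 7.34. The table has no detection calls, and a dim gene may show too small a difference.

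Names came from the annotation of the platform: 21789 had 1 symbol, 1621 several and 12146 none here. Of those with 1 symbol, 21698 matched a gene identifier of GRCm38.p6 and took its current symbol. The probe set with the highest mean represented a gene. The contrast of ATC against PTC used limma 3.58.1, lmFit then eBayes (R 4.3.3), without covariates, with Benjamini-Hochberg adjustment over 19938 genes at 0.05. On simulated arrays of this comparison with 19938 genes, 42% of 50 genes changed by 0.5 log2 units were recovered and 94% of 50 changed by 1, and 6.29% of 175 calls were false. Far fewer genes were changed in the simulation than the 4234 called in the data, so the shares recovered may differ here. The members, roles and lists were chosen with earlier results of these data known. All measured members are accounted for; values in every tumour are given for members past the threshold with separate groups, for the largest and smallest difference of each role, for Mdm2, Ccng1, Bbc3 and Pmaip1, and for some others chosen after their values were seen. In the other lists the largest 3 rises and 3 falls that passed, Mdm4 and Cdkn2a were named, others only to spell out a count or a call that changed. The planned likeness of members to Ccng1 is not given, since 5 tumours per group are too few for a correlation.

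The alternatives tried were the replicate number as a block, averaged probe sets, every probe set, 2 filters on dim genes (percentiles 25 and 50), quantile normalization once more, median centring, robust estimation on a variance trend, weights per array and each array left out. Leaving out ATC replicates 2 and 5 together, and mismatches in the promoter search, were chosen after seeing the data. Python 3.11.15, pandas 2.3.3, numpy 2.4.6 and matplotlib 3.10.9 were used.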

Additional observations from a re-analysis of the deposited data

Results flagged for a closer look

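Single tumours stood apart from the other 4 of their group in 8 of 62 groups of values checked (Dixon's test at its 95% critical value of 0.71). For normally distributed values chance flags about 1 group in 20. The rule was not run over all genes, so whether 8 of 62 is unusual for these arrays was not tested. In PTC, replicate 5 had Ccng1 at 11.85 against 12.02 to 12.06 in the others, and replicate 2 had Btg2 at 10.31 against 9.43 to 9.68 and Rrm2b at 8.83 against 8.71 to 8.73. PTC replicate 1 was low for both repair genes that fell, Ercc5 at 8.91 against 9.18 to 9.21 and Polk at 9.55 against 9.77 to 9.83. In ATC, replicate 5 was high for Pmaip1 at 8.33 against 7.69 to 7.75 and for Ak1 at 7.81 against 7.22 to 7.34. ATC replicate 3 was low for Fas at 7.31 against 8.16 to 8.30. The cause was not tested.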

How the results depend on the processing

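Over the 20 alternatives the number of members that fell was 10 to 14 (main 13), and 0 members reversed direction across a call. Of the 15 members called, 9 kept their call in every alternative that tested them. The number that rose was 2, and it was 4 with array weights and 3 with the filter at percentile 50 (Plk2 added); leaving out each array in turn it was 2 to 4, with 4 without ATC replicate 3 (Gadd45a and Sesn1 added) and 4 without ATC replicate 4 (Gadd45a and Plk2 added). The median difference was −0.31 with the filter at percentile 50, which removed 5 dim members (25 left), and −0.31 to −0.14 over all alternatives. The replicate numbers did not pair the tumours: deviations of same-numbered tumours correlated at −0.09 to 0.12, and 1 of 5 correlated best with its own number. With the replicate block, 12 members fell (Ddit4 lost, −0.46, adjusted p = 0.0899, limma) and 2 rose, with a median of −0.18. The block also ended the call of Trp53bp2 (−0.26, adjusted p = 0.0617, limma). Without ATC replicates 2 and 5, 10 fell and 2 rose. The number of arrays limits the precision. Changes of 0.5 log2 units were often missed in the simulation, in which far fewer genes changed than were called here.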
